A study of Mus musculus with 6 samples.

Results

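mmu-miR-10a-5p, mmu-miR-99a-5p, mmu-miR-99b-5p and mmu-miR-125a-5p are 4 mature miRNAs whose genes lie beside Hox or let-7 genes. They were taken by name and not by a rule on their values, though earlier results of these data were known. They are 4 of the 199 mature miRNAs in the count table of this study. miR-10a is encoded in the Hoxb cluster, miR-99a beside a let-7c gene, and miR-99b and miR-125a in one cluster with let-7e. The libraries were made from mouse intestinal organoids, epithelial cultures grown from isolated small intestinal crypts in a gel and in IntestiCult medium. One group of 3 libraries came from organoids given 0.5 µg/ml of BMP4, the signalling protein bone morphogenetic protein 4, over 4 days, and the other group of 3 from organoids given PBS as the control. The comparison asks how exposure to BMP4 changes the miRNAs of these organoids. The labels carry no genotype, age or sex, and they do not say whether the 3 libraries of a group are separate cultures, so the p-values speak only of the variation among these libraries, and this variation may be technical.

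A mature miRNA guides the silencing complex to messenger RNAs that pair with its seed, the bases near its 5′ end, and so lowers the output of those messages. The miR-10 genes sit within Hox clusters, the gene arrays that set position along the body axis, and the miR-99 and miR-100 genes form repeated clusters with let-7 and miR-125 genes. In mammals, miR-99 and miR-100 are known to target the message of the growth kinase mTOR, and miR-125 and let-7 target the message of Lin28, an RNA-binding protein that blocks let-7 maturation.

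The mature sequences are shown because their likeness bears on how the reads of one miRNA can be told from those of another. They are given 5′ to 3′ from RefSeq annotation of GRCm38.p6, with the seed (bases 2 to 8) in capitals.
mmu-miR-10a-5p: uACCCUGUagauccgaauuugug
mmu-miR-99a-5p: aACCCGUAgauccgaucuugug
mmu-miR-99b-5p: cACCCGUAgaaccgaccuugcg
mmu-miR-125a-5p: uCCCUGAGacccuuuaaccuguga

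All 4 matched a RefSeq mature name, as did 177 of the 199 entries of the table. miR-99a-5p and miR-99b-5p shared the seed ACCCGUA and differed at 4 positions, A1C, U11A, U16C and U21C, counted from 1 at the 5′ end with the base of miR-99a-5p first. miR-10a-5p had the seed ACCCUGU and miR-125a-5p the seed CCCUGAG, and 0 of the other matched entries had either of them. Seeds of entries without a match were not compared. miR-10a-5p and miR-99a-5p belong to one superfamily, with an edit distance of 4 and a common stretch of 10 bases, guagauccga. miR-125a-5p was the most distant, with an edit distance of 9 to miR-10a-5p, 11 to miR-99a-5p and 12 to miR-99b-5p.

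The nearest relatives of these miRNAs, namely miR-10b-5p, miR-100-5p and miR-125b-5p, had no entry in the count table and could not be analysed. Their RefSeq sequences are shown to compare with the set above.
mmu-miR-10b-5p: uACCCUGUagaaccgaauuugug
mmu-miR-100-5p: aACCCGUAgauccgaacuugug
mmu-miR-125b-5p: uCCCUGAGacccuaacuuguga
miR-10b-5p differs from miR-10a-5p at a single base, U12A, and miR-100-5p from miR-99a-5p at U16A. The counting program accepts a mismatch by default, so reads of such a pair could be counted under either name, and the counts of miR-10a-5p and miR-99a-5p are uncertain to that extent. The edit distance of miR-125a-5p to miR-125b-5p was 3.

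On GRCm38 (GENCODE M21), the Mir10a hairpin lay on chromosome 11 at 96317165 to 96317274 on the plus strand, overlapping no annotated gene. It ended 992 bases before the start of Hoxb4 and began 11043 bases after the end of Hoxb5, both homeobox transcription factor genes. The Mir99a hairpin lay on chromosome 16 at 77598936 to 77599000, in an intron of the noncoding host gene Mir99ahg, with the Mirlet7c-1 hairpin 656 bases downstream and Mir125b-2 47272 bases downstream. On chromosome 17, Mir99b (17830188 to 17830257), Mirlet7e (17830352 to 17830444) and Mir125a (17830812 to 17830879) followed each other within Spaca6, a gene needed for sperm and egg fusion, with gaps of 94 and 367 bases. Mir99b and Mirlet7e were intronic, and Mir125a overlapped an exon in 1 of 3 overlapping Spaca6 transcripts. The let-7 products of these clusters, printed because their ratios to the miR-99 members are given later, shared the seed GAGGUAG.
mmu-let-7c-5p: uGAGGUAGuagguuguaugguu
mmu-let-7e-5p: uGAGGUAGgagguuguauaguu
let-7c-5p comes from this locus and also from Mirlet7c-2 on chromosome 15, and its counts cannot be divided between them.

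**Figure D1:**
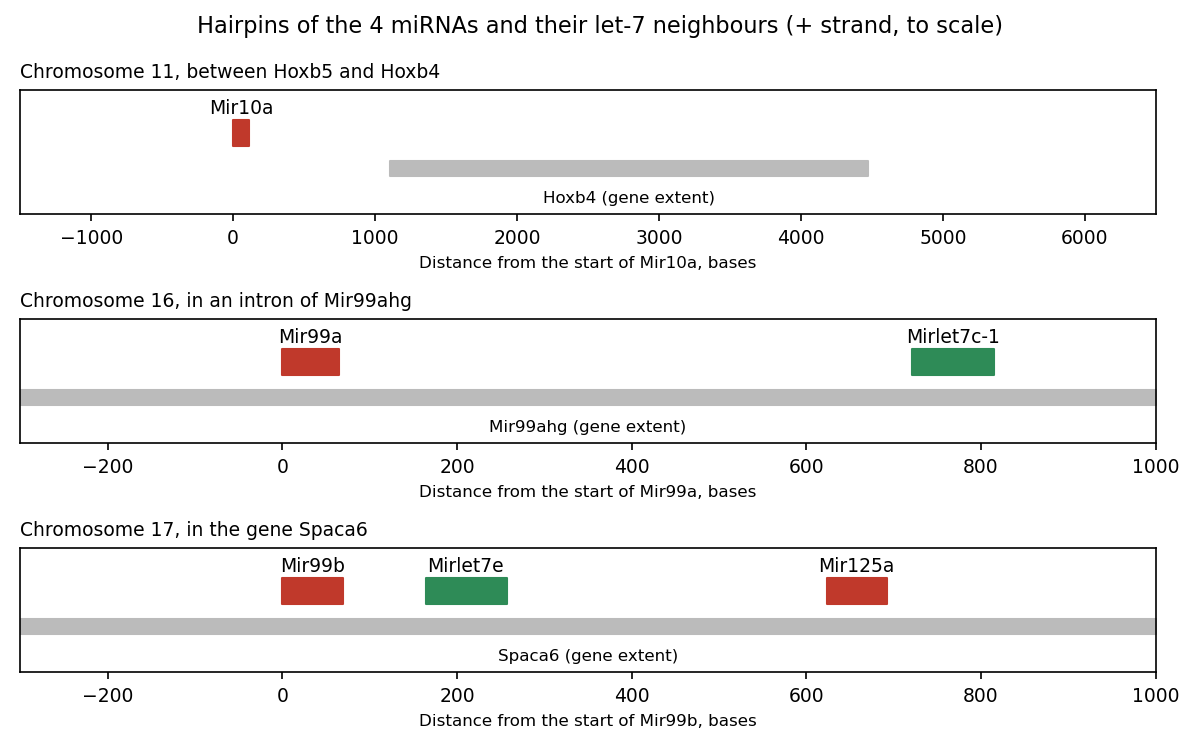
Hairpins of the 4 miRNAs (red) and of their let-7 neighbours (green), with the extent of nearby genes in grey, against distance in bases from the start of the first hairpin (3 panels, each to scale). Mir10a stands alone 992 bases before Hoxb4, Mir99a lies 656 bases from Mirlet7c-1, and Mir99b, Mirlet7e and Mir125a are packed with gaps of 94 and 367 bases.

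The BMP4 libraries held 1074014, 998854 and 3486409 counts and the PBS libraries 259811, 2248866 and 2128086 counts. Levels are given as unscaled CPM (counts per 1000000 counts of that library) and, further on, as CPM after scaling. The detection floor was set at 3 counts, or 0.860 to 3.003 unscaled CPM in BMP4 libraries and 1.33 to 11.5 in PBS libraries, and every value of the 4 miRNAs was above it. miR-215-5p, an intestinal epithelial miRNA, took 53.2% to 60.6% of all counts in BMP4 libraries and 12.8% to 15.97% in PBS libraries, so the unscaled CPM of every other miRNA depends on that share. TMM scaling (trimmed mean of M values), under which most miRNAs are taken to be unchanged, gave library factors of 0.600, 0.375 and 0.651 in BMP4 and 1.97, 1.78 and 1.95 in PBS. BMP4 replicate 2 stood apart from the other BMP4 libraries on the second principal component, which held 18.6% of the variance. Of the marker lists, all 9 intestinal epithelial miRNAs were in the table and summed to 80.9% to 83.2% of counts in BMP4 and 50.3% to 52.7% in PBS. Of the 9, only miR-215-5p had a share wholly higher in BMP4, 7 were wholly lower and miR-194-5p overlapped, while after TMM scaling miR-192-5p, miR-194-5p and miR-215-5p were called higher and 0 were called lower by edgeR. The stromal and muscle list had 1 of 8 members in the table, miR-1a-3p at 12.1 to 19.5 CPM in BMP4 and 23.1 to 41.4 in PBS, but with a TMM-scaled log2 fold change of 0.63 (edgeR adjusted p = 0.284). The immune list had 2 of 6, summing to 41.0 to 56.5 CPM in BMP4 and 79.9 to 97.4 in PBS. Within this list the reading of miR-146a-5p changed with the scaling. Its unscaled shares overlapped between the groups, and after TMM it was called higher in BMP4 (log2 fold change 1.22, edgeR adjusted p = 0.0238). miR-155-5p was wholly lower in BMP4 unscaled, and after TMM it was at -0.36 (edgeR adjusted p = 0.596). The erythroid list had 0 of 2, and the neuronal list had 1 of 2, miR-9-5p at 2.79 to 31.0 CPM in BMP4 and 2.67 to 61.6 in PBS. In such bulk libraries, fewer cells of a type and less RNA per cell cannot be told apart.

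All 4 miRNAs were of modest abundance, and their unscaled shares of the counts were lower in BMP4 organoids, where miR-215-5p took a larger share. miR-10a-5p, the most abundant of them, was at 69.8, 163 and 90.9 unscaled CPM in the BMP4 libraries, against 724, 792 and 935 CPM in the PBS libraries. Among the 199 entries it ranked 61 to 97 in BMP4 and 57 to 61 in PBS, so its place in the order overlapped although its share did not. miR-99a-5p was at 30.7, 37.0 and 32.1 CPM in BMP4, against 158, 395 and 317 CPM in PBS. The PBS libraries of miR-99a-5p were spread widely, with replicate 1, the shallowest library, lowest at 41 counts. miR-99b-5p was at 29.8, 43.0 and 26.7 CPM in BMP4, against 57.7, 81.4 and 87.4 CPM in PBS. miR-125a-5p was at 24.2, 16.02 and 27.2 CPM, against 115, 81.8 and 72.8 CPM in PBS. Together the 4 held 155, 259 and 177 CPM in BMP4 and 1055, 1351 and 1412 CPM in PBS.

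The mean level of miR-10a-5p was 108 ± 49.0 unscaled CPM in BMP4 and 817 ± 108 in PBS (SD, n = 3 each). That of miR-99a-5p was 33.3 ± 3.32 in BMP4 and 290 ± 121 in PBS. For miR-99b-5p it was 33.2 ± 8.69 in BMP4 and 75.5 ± 15.7 in PBS, and for miR-125a-5p 22.5 ± 5.81 in BMP4 and 90.0 ± 22.5 in PBS. In BMP4, the order of levels below miR-10a-5p was not resolved, since miR-99a-5p and miR-99b-5p overlapped and miR-125a-5p overlapped with miR-99b-5p, while miR-99a-5p lay above miR-125a-5p. In PBS, miR-10a-5p was above miR-99a-5p, which was above the other two, and miR-99b-5p and miR-125a-5p overlapped. Adaptor ligation favours some miRNA sequences over others, so an order of counts is not an order of molecules. Each of the 4 had BMP4 libraries wholly below PBS libraries, with an exact 2-sided permutation p of 0.1, the smallest that 3 libraries against 3 allow. The same was true of 160 of 199 entries, 80.4%, so the count of 4 is not a result about these miRNAs. The PBS mean was 7.57 times the BMP4 mean for miR-10a-5p, 8.71 times for miR-99a-5p, 4.00 times for miR-125a-5p and 2.28 times for miR-99b-5p.

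When miR-215-5p was left out of the denominator, the gaps narrowed unequally. miR-10a-5p was then at 256 ± 138 CPM of the remaining counts in BMP4 and 960 ± 143 in PBS, and miR-99a-5p at 77.7 ± 14.2 in BMP4 and 342 ± 147 in PBS. miR-125a-5p was at 51.5 ± 9.42 in BMP4 and 105 ± 24.0 in PBS (SD, n = 3 each), and the BMP4 libraries of these 3 stayed wholly below the PBS libraries. miR-99b-5p alone of the 4 then overlapped, at 68.3, 109 and 56.96 CPM in BMP4 and 66.2, 96.3 and 104 CPM in PBS (exact permutation p = 0.8). How many of all entries lay wholly below in this way was not computed, so the count of 3 is not a result about these miRNAs. With total counts without miR-215-5p as the scaling, edgeR called 82 of 195 tested miRNAs lower, and the median log2 fold change was -0.79.

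**Figure D2:**
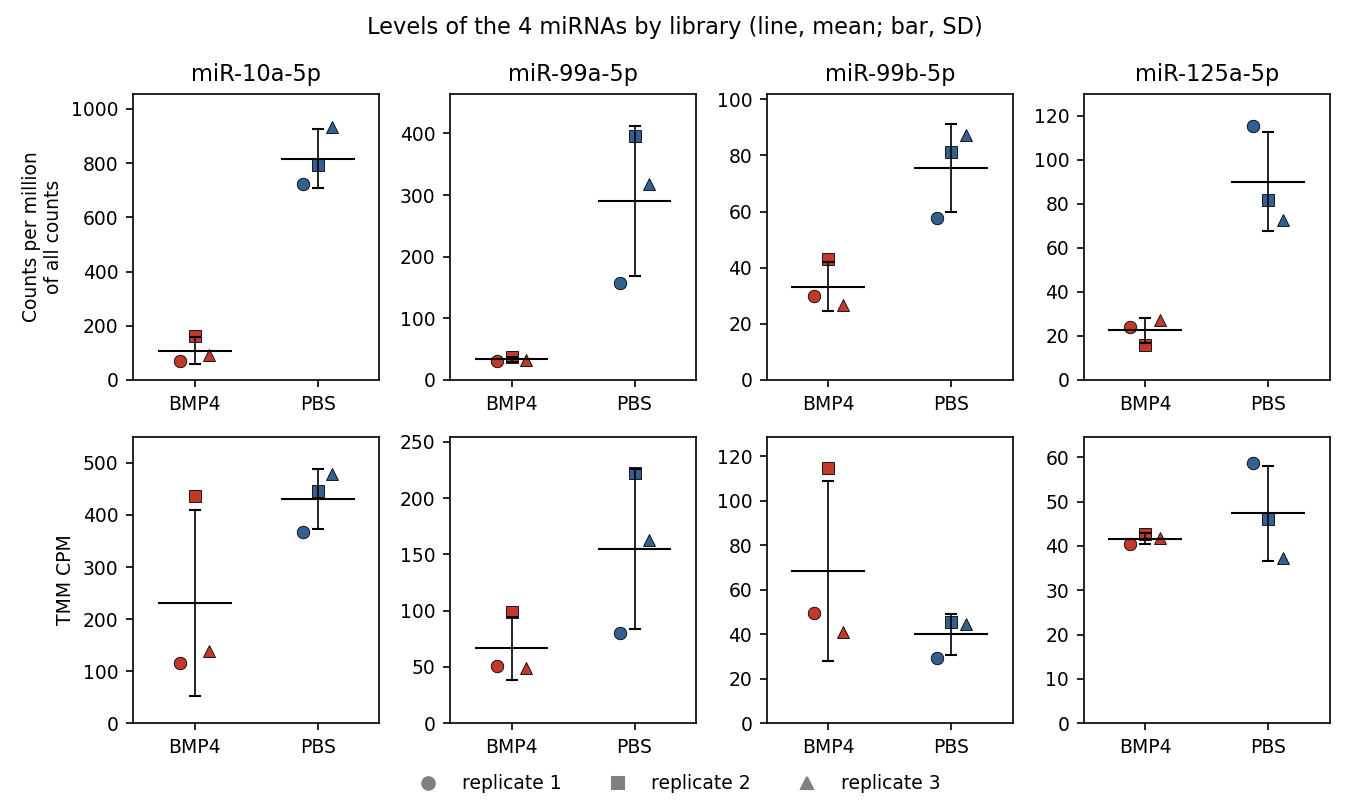
Level of each of the 4 miRNAs in each library, as unscaled CPM (top row) and as TMM CPM (bottom row), with BMP4 left of PBS, the group mean as a line and the SD as a bar (n = 3 each). In the top row BMP4 libraries lie wholly below PBS libraries for all 4 miRNAs, while in the bottom row the groups overlap for all 4 and BMP4 replicate 2 (square) is the highest BMP4 library, at 436 for miR-10a-5p and 115 for miR-99b-5p.

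After TMM scaling, miR-99a-5p was lower in BMP4 organoids, while the other 3 did not pass the test. In TMM CPM, the counts over the TMM-scaled library size, miR-99a-5p was at 51.2, 98.9 and 49.3 in BMP4, against 80.3, 222 and 162 in PBS. BMP4 replicate 2 lay above PBS replicate 1, so the groups overlapped by that pair of libraries. The log2 fold change of BMP4 over PBS was -1.29 ± 0.44 (SE; 95% interval -2.19 to -0.38; edgeR adjusted p = 0.0306). The call was lost without BMP4 replicate 1 (-1.16, edgeR adjusted p = 0.0789) or BMP4 replicate 3 (-1.09, 0.116), and likewise without PBS replicate 2 (-0.86, 0.257) or PBS replicate 3 (-1.15, 0.145). It was kept when PBS replicate 1 was left out. Without BMP4 replicate 2 the value was -1.66 (edgeR adjusted p = 9.86e-05).

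miR-10a-5p, known to target Hox messages in mammalian cells, was at 116, 436 and 140 TMM CPM in BMP4 and at 368, 446 and 479 TMM CPM in PBS. BMP4 replicates 1 and 3 were far below every PBS library, and replicate 2 lay within the PBS range. The log2 fold change was -0.93 ± 0.43 (SE; 95% interval -1.83 to -0.03), which was not called (edgeR adjusted p = 0.120). Without BMP4 replicate 2 it was -1.75 (edgeR adjusted p = 2.97e-06), and with upper quartile scaling of all libraries it was -1.16 (edgeR adjusted p = 0.0287). The call for this miRNA thus depended on the scaling and on BMP4 replicate 2, and the value was -0.62 without BMP4 replicate 1 and -0.66 without BMP4 replicate 3. In BMP4 replicate 2 the level was 3.40 times the mean of the other BMP4 libraries on the TMM scale and 2.03 times on the unscaled one. That difference stood at percentile 98.5 of all tested miRNAs. The TMM factor of that library was also the lowest of the 6, and its part in the result was not tested.

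miR-99b-5p was at 49.6, 115 and 41.0 TMM CPM in BMP4 and at 29.4, 45.8 and 44.8 TMM CPM in PBS. Only BMP4 replicate 2 was far above the PBS libraries. The log2 fold change was 0.67 ± 0.43 (SE; 95% interval -0.23 to 1.57; edgeR adjusted p = 0.284), and without BMP4 replicate 2 it was 0.11 (edgeR adjusted p = 0.865). Its sign turned with the scaling, to -1.23 with total counts (edgeR adjusted p = 0.0127) and -0.24 with total counts without miR-215-5p (edgeR adjusted p = 0.636). On the TMM scale, miR-99b-5p in BMP4 replicate 2 was 2.54 times the mean of the other BMP4 libraries. There miR-99a-5p was at 1.97 times and miR-125a-5p at 1.04 times. Unscaled, the values were 1.52 times for miR-99b-5p, 1.18 times for miR-99a-5p and 0.62 times for miR-125a-5p.

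miR-125a-5p was at 40.3, 42.8 and 41.9 TMM CPM in BMP4 and at 58.7, 46.0 and 37.3 TMM CPM in PBS. The BMP4 libraries were close together and lay within the PBS range. The log2 fold change was -0.15 ± 0.39 (SE), with a 95% interval of -0.96 to 0.65, so changes of up to about that size in either direction could not be told from none (edgeR adjusted p = 0.794). It rested on 16 to 95 counts in a BMP4 library and 30 to 184 in a PBS library. Its value was -0.16 without BMP4 replicate 2 and 0.08 without PBS replicate 1.

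Of the 4 miRNAs, 1 was called at an edgeR adjusted p under 0.05, against 59 of 195 tested miRNAs (30.3%), and that one was lower, against 25 of 195 (12.8%). Groups did not overlap in TMM CPM for 0 of the 4, against 85 of 195 miRNAs (43.6%). Without BMP4 replicate 2, 2 of the 4 were called lower, against 33 of 198 (16.7%). With total counts as the only scaling all 4 were called lower, but so were 158 of 195 (81%), and the median over all tested miRNAs of the log2 fold change was then -1.78, against 0.03 with TMM. Relative to that median, the changes were -1.36 for miR-99a-5p, -1.14 for miR-10a-5p, -0.16 for miR-125a-5p and 0.56 for miR-99b-5p. The split of calls moved with the scaling too, with 34 higher and 25 lower under TMM, 29 and 31 under upper quartile scaling, 13 and 158 under total counts, and 19 and 82 under total counts without miR-215-5p.

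**Figure D3:**
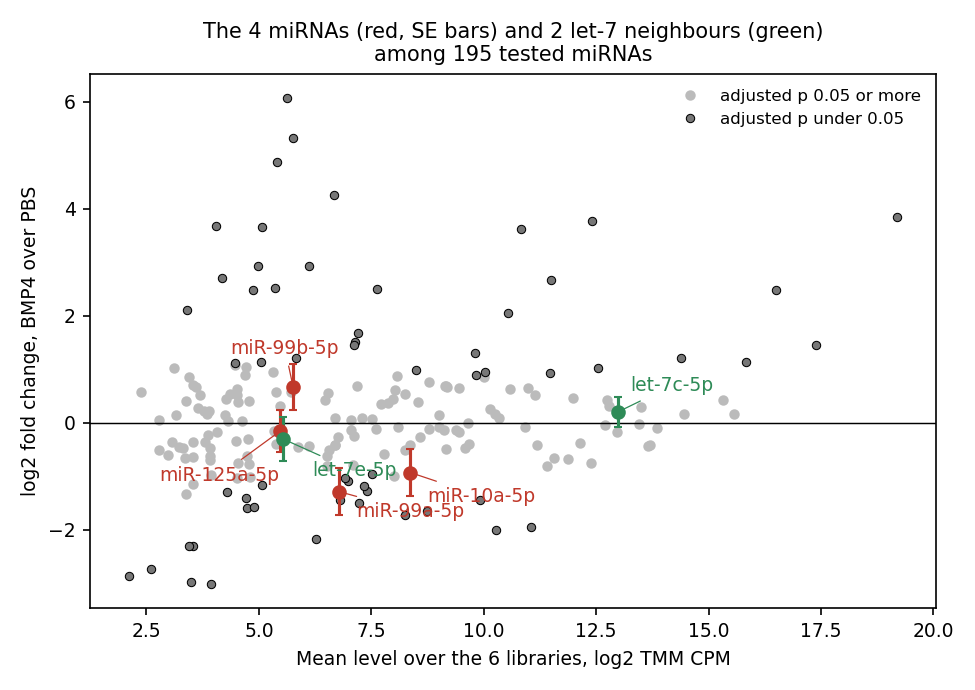
log2 fold change of BMP4 over PBS against the mean level over the 6 libraries (log2 TMM CPM) for the 195 tested miRNAs, with the 4 miRNAs in red, 2 let-7 neighbours in green and SE bars on both. miR-99a-5p at -1.29 is the only one of these 6 with an adjusted p under 0.05, and miR-99b-5p at 0.67 lies on the other side of 0 (with total counts as the scaling it was at -1.23).

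**Figure D4:**
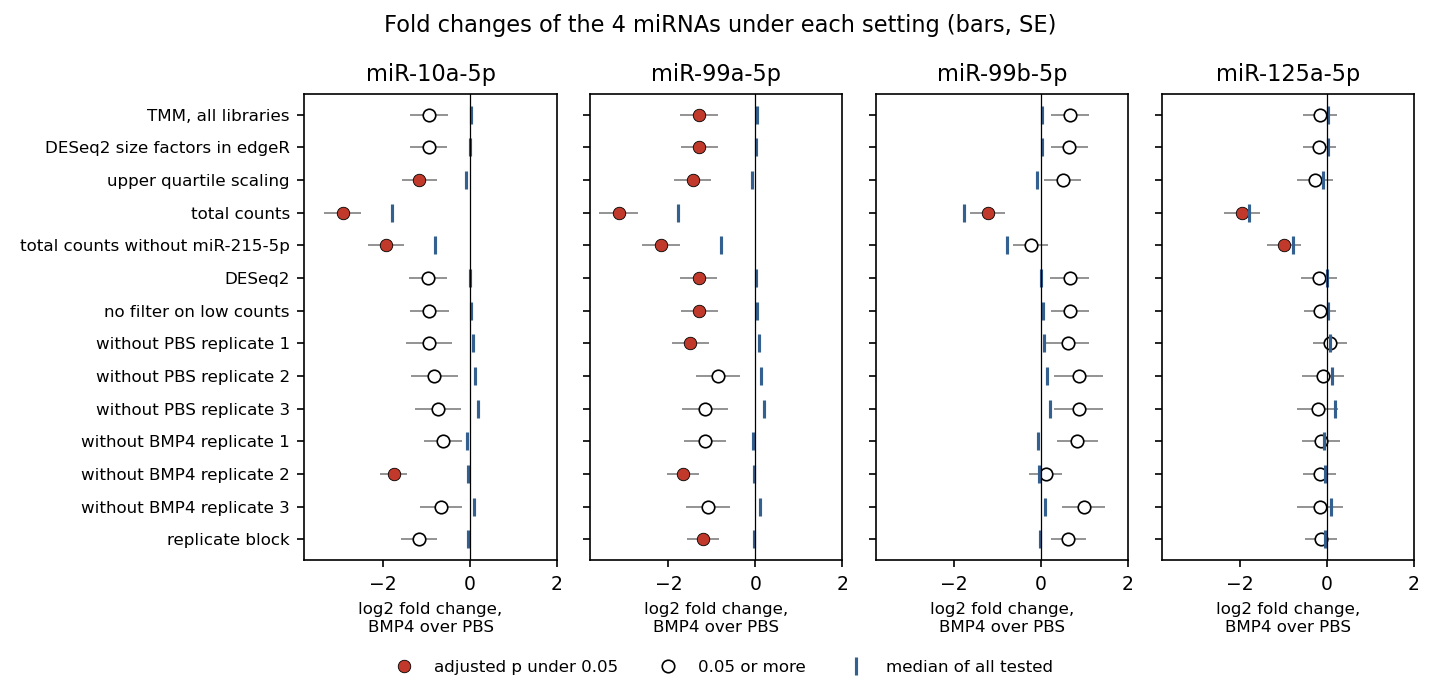
log2 fold change of BMP4 over PBS with its SE for the 4 miRNAs under TMM and 13 other settings, filled where the adjusted p was under 0.05, with the median of all tested miRNAs as a blue bar. miR-10a-5p and miR-99a-5p lie below that median in all 14 settings and miR-99b-5p above it in all 14, while miR-125a-5p stays within 0.41 of it.

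Ratios of counts within a library do not depend on the scaling between libraries, and 9 such ratios were computed, 3 of which did not overlap between the groups. The ratios share members and are not independent of each other. Ratios between other entries were not computed, so 3 of 9 cannot be set against a share over all entries and is not a result about these miRNAs. The count of miR-99a-5p over that of miR-99b-5p was 1.03, 0.860 and 1.20 in BMP4 libraries, against 2.73, 4.86 and 3.63 in PBS libraries. The groups did not overlap, and the mean ratio was 1.03 ± 0.172 in BMP4 and 3.74 ± 1.07 in PBS (SD, n = 3 each). The log2 ratio differed by -1.82, with an exact 2-sided permutation p of 0.1 (0.3 after Benjamini-Hochberg adjustment over 9 ratios). Leaving out any 1 library kept this difference between -2.03 and -1.61.

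Put as a share of the summed counts of miR-99a-5p and miR-99b-5p, which share a seed, miR-99a-5p gave 50.8%, 46.2% and 54.6% in BMP4 libraries. In PBS libraries it gave 73.2%, 82.9% and 78.4%. The 95% Wilson intervals were 38.9% to 62.5%, 35.7% to 57.1% and 47.8% to 61.3% in BMP4, against 60.4% to 83.0%, 80.6% to 85.1% and 75.5% to 81.0% in PBS. The intervals cover counting error only, and those of PBS replicate 1, which had 56 counts of this seed, overlapped slightly with those of BMP4 replicates 1 and 3. The summed counts of the seed were 66.5 ± 11.8 CPM in BMP4 and 366 ± 135 in PBS (SD, n = 3 each). These are shares of counts, in which reads of miR-100-5p may be included under miR-99a-5p.

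miR-10a-5p had a lower count relative to miR-99b-5p in every BMP4 library than in any PBS library. Relative to miR-99a-5p no difference was resolved. Its count over that of miR-99b-5p was 2.34, 3.79 and 3.41 in BMP4, against 12.5, 9.74 and 10.7 in PBS. The groups did not overlap, with a mean of 3.18 ± 0.750 in BMP4 and 10.99 ± 1.42 in PBS (SD, n = 3 each) and a log2 difference of -1.80 (exact permutation p = 0.1, adjusted 0.3). Without BMP4 replicate 2 the difference was -1.94. Its count over that of miR-99a-5p was 2.27, 4.41 and 2.83 in BMP4 and 4.59, 2.005 and 2.95 in PBS, which overlapped fully. The means were 3.17 ± 1.11 in BMP4 and 3.18 ± 1.31 in PBS (log2 difference 0.02, exact permutation p = 1). That difference lay between -0.27 and 0.32 when any 1 library was left out, so the ratio was not shown to be alike in the groups.

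Against miR-125a-5p, none of the other 3 had groups that did not overlap. miR-10a-5p over miR-125a-5p averaged 5.47 ± 4.09 in BMP4 and 9.59 ± 3.28 in PBS (exact permutation p = 0.3, n = 3 each). miR-99a-5p over miR-125a-5p averaged 1.59 ± 0.630 in BMP4 and 3.52 ± 1.88 in PBS (exact permutation p = 0.2, n = 3 each). These ratios were uneven within groups, and miR-125a-5p had as few as 16 counts in BMP4 replicate 2 and 30 in PBS replicate 1. miR-99b-5p over miR-125a-5p, its partner in the chromosome 17 cluster, was 1.23, 2.69 and 0.979 in BMP4 and 0.500, 0.995 and 1.20 in PBS (log2 difference 0.79, exact permutation p = 0.3).

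**Figure D5:**
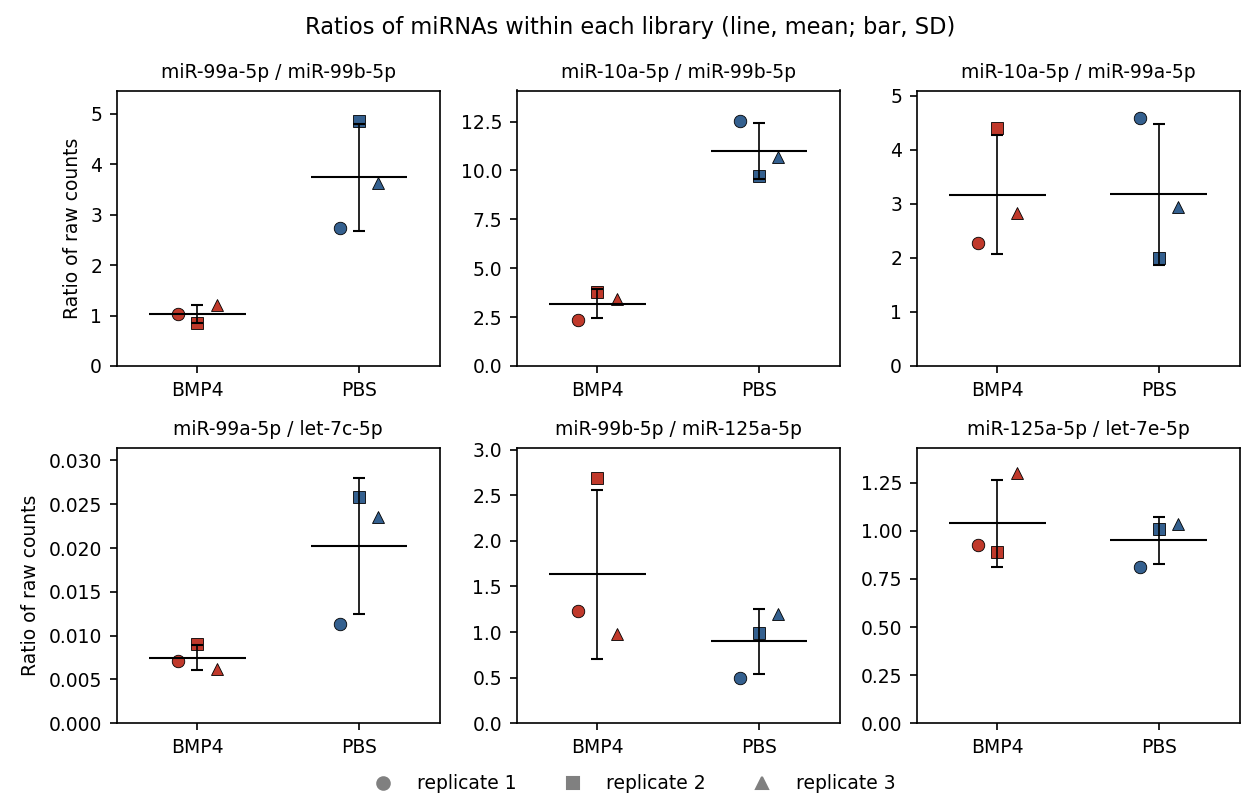
Ratio of raw counts of 6 pairs of miRNAs in each library, with BMP4 left of PBS, the mean as a line and the SD as a bar (n = 3 each). The ratios of miR-99a-5p to miR-99b-5p (mean 1.03 in BMP4 and 3.74 in PBS), of miR-10a-5p to miR-99b-5p and of miR-99a-5p to let-7c-5p do not overlap between the groups, while the other 3 ratios do.

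With TMM scaling the let-7 neighbours were not called, and the ratio of miR-99a-5p to let-7c-5p was lower in BMP4 libraries. With total counts as the scaling, let-7c-5p was at -1.65 (edgeR adjusted p = 7.08e-05) and let-7e-5p at -2.13 (edgeR adjusted p = 0.000772). Under that scaling 158 of 195 miRNAs were called lower. let-7c-5p, from the locus of Mir99a and from chromosome 15, was at 7178, 10960 and 7936 TMM CPM in BMP4 and at 7098, 8615 and 6901 TMM CPM in PBS, and the groups overlapped. Its log2 fold change was 0.21 ± 0.29 (SE; edgeR adjusted p = 0.607). The count of miR-99a-5p over that of let-7c-5p was 0.00713, 0.00902 and 0.00622 in BMP4, against 0.0113, 0.0258 and 0.0235 in PBS. These did not overlap, and the log2 difference was -1.36 (exact permutation p = 0.1, adjusted 0.3), between -1.73 and -1.14 when any 1 library was left out. Since let-7c-5p differs from let-7a-5p at G19A, the mismatch allowed in counting applies to it as well.

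let-7e-5p, which lies between Mir99b and Mir125a, was at 43.4, 48.1 and 32.2 TMM CPM in BMP4 and at 72.4, 45.5 and 36.1 TMM CPM in PBS. Its log2 fold change was -0.30 ± 0.41 (SE; edgeR adjusted p = 0.600). The count of miR-125a-5p over that of let-7e-5p was 0.929, 0.889 and 1.30 in BMP4 and 0.811, 1.01 and 1.03 in PBS, and the means of 1.04 ± 0.228 in BMP4 and 0.952 ± 0.123 in PBS were within the spread (exact permutation p = 0.7, n = 3 each). miR-99b-5p over let-7e-5p averaged 1.60 ± 0.685 in BMP4 and 0.884 ± 0.430 in PBS, with a log2 difference of 0.91 and overlapping groups (exact permutation p = 0.2, n = 3 each). Counts of these 3 products were low, which limits all ratios between them. let-7e-5p also differs from let-7a-5p at a single base, G9U, so reads of let-7a-5p could be counted under its name. It had 18 to 182 counts in a library, against 3596 to 38932 for let-7a-5p. The values, ratios and shares of let-7e-5p are uncertain to that extent, which was not tested. Within the cluster, miR-99b-5p held 42.9 ± 11.2% in BMP4 and 29.8 ± 10.3% in PBS, let-7e-5p 28.0 ± 4.59% in BMP4 and 36.3 ± 7.77% in PBS, and miR-125a-5p 29.1 ± 7.87% in BMP4 and 33.9 ± 2.53% in PBS. Their sum was 77.3 ± 2.61 unscaled CPM in BMP4 and 263 ± 45.6 in PBS (SD, n = 3 each).

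A wider list had 29 entries, of which 8 were in the table and all 8 were tested. It held both arms of miR-10, miR-99, miR-100, miR-125, let-7a-2, let-7c, let-7e and the other Hox miRNAs miR-196 and miR-615. These were the 4 miRNAs with let-7a-5p, let-7c-5p, let-7c-2-3p and let-7e-5p. let-7c-2-3p comes from Mirlet7c-2 on chromosome 15, which is not a neighbour of any of the 4 miRNAs. Of the 8, 1 was called, miR-99a-5p, and the median log2 fold change was -0.23, against 59 called of 195 (30.3%) and a median of 0.03 over all tested miRNAs. let-7a-5p was at -0.16 (edgeR adjusted p = 0.692) and let-7c-2-3p at -0.41 (edgeR adjusted p = 0.511). The counts of let-7c-2-3p equalled those of let-7a-1-3p in every library, so that value stands for both names.

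Over the 6 libraries, the patterns of the 4 miRNAs in log2 TMM CPM differed. The Pearson correlation between miR-10a-5p and miR-99a-5p was 0.853, while miR-99b-5p had 0.19 with miR-10a-5p, 0.088 with miR-99a-5p and -0.42 with miR-125a-5p. These are descriptions over 6 libraries that share a group structure and depth. Among 183 tested miRNAs with a mean of 10 TMM CPM or more, the patterns most like miR-10a-5p were those of miR-7a-5p (0.943), miR-92a-3p (0.939) and miR-25-3p (0.908). miR-92a-3p (0.858) was also among the 3 most like miR-99a-5p, after miR-126a-3p (0.975) and miR-375-3p (0.894). miR-375-3p is one of the epithelial markers, and miR-126a-3p, known from endothelial cells, was the 1 of 2 endothelial markers in the table.

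miR-126a-3p was at 43.4, 58.8 and 48.9 TMM CPM in BMP4 and at 50.9, 81.3 and 69.8 TMM CPM in PBS, lowest in PBS replicate 1 among the PBS libraries as miR-99a-5p was. Its log2 fold change was -0.46 ± 0.38 (SE; edgeR adjusted p = 0.403), and unscaled it was at 22.03 to 31.8 CPM in BMP4 and 100 to 145 in PBS. Whether these epithelial cultures held any endothelial cells was not tested, nor was any part of such cells in the value of miR-99a-5p. The patterns most like miR-99b-5p were those of miR-151-3p (0.971), miR-30a-3p (0.961) and miR-1964-3p (0.946), and miR-151-3p had the same high library, with 1196, 3111 and 1301 TMM CPM in BMP4 and 891, 1474 and 1246 in PBS. Those most like miR-125a-5p were miR-103-3p (0.895), its cluster neighbour let-7e-5p (0.873) and miR-3473e (0.797).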

How the data were processed

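Organoid RNA, isolated so as to keep small RNA, was made into size-selected small RNA libraries. The authors trimmed adaptors with bbmap, discarded reads outside the miRNA length range, mapped the rest with the miRDeep2 mapper and used its quantifier, with no settings changed, to count reads on miRBase mature miRNAs. The authors deposited raw counts, 1 column per library with 0 columns left unused, and the sources used here do not give the genome build, the miRBase release or the rule by which 199 entries were kept. The submitters' notes name edgeR. Groups follow the treatment label, since the treatment note names BMP4 for every sample.

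Counts were tested with edgeR 4.0.16 in R 4.3.3 (filterByExpr, which left 195 of 199, TMM, 2-sided quasi-likelihood F test, Benjamini-Hochberg over all tested). A miRNA was called at an adjusted p under 0.05. The SE came from the log2 fold change and its F statistic. TMM CPM were counts over the TMM-scaled library size. Ratios were compared as log2((a + 0.5)/(b + 0.5)) by exact permutation, and printed ratios are of raw counts. Alternatives were DESeq2 1.42.0, other scalings, no filter, other pseudocounts, each library left out and the replicate number as a block. Same-numbered libraries did not deviate together (correlation over miRNAs 0.043, 0.094 and -0.013), so the block is given only with the alternatives. The model code was tested on simulated data. Sequences are RefSeq, hairpins GENCODE M21, and figures used Python 3.11.15 with matplotlib 3.10.9.

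The text names the 4 miRNAs, entries with their seeds, and a list of neighbouring and related genes. It also names the 3 miRNAs most alike to each of the 4 in log2 TMM CPM. Cell type markers and miR-215-5p, the most abundant entry in BMP4 libraries, are named as well. let-7a-1-3p was added after its values were seen. The members and lists were chosen with earlier results of these data known. Depth was 259811 to 3486409 counts per library, and Wilson intervals and floors cover no more than counting error, because copies made by PCR are not separate molecules. Intervals of log2 fold changes come from the edgeR fit and include the variation among libraries.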

Additional observations from a re-analysis of the deposited data

How the results depend on the processing

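The number of changed miRNAs was 59 with TMM, 171 with total counts and 101 with total counts without miR-215-5p, and the number lower in BMP4 was 25, 158 and 82. Leaving out each library in turn gave 35 to 71 changed and 11 to 33 lower. For miR-10a-5p the log2 fold change was -1.16 with upper quartile scaling, -2.92 with total counts and -1.92 without miR-215-5p in them, each called, and -1.75 to -0.62 when a library was left out. For miR-99a-5p that last range was -1.66 to -0.86, with the call lost for 4 of the 6 libraries. miR-99b-5p changed sign to -1.23 with total counts and -0.24 without miR-215-5p. miR-125a-5p was called at -1.95 and -0.98 with these scalings and lay between -0.21 and 0.076 when a library was left out. let-7c-5p changed sign to -1.65 and -0.68 with them and was called in each. let-7e-5p (-2.13 and -1.15) and let-7a-5p (-2.02 and -1.05) were called with them too. When a library was left out, let-7c-5p lay between -0.0021 and 0.40, let-7e-5p between -0.42 and 0.049 and let-7a-5p between -0.38 and 0.036. The total-count scalings moved the median of all miRNAs to -1.78 and -0.79. The difference of miR-99b-5p in unscaled CPM was -42.3, and -10.6 without miR-215-5p in the denominator. With the replicate number as a block, the log2 fold change was -1.16 for miR-10a-5p (edgeR adjusted p = 0.0636) and -1.21 for miR-99a-5p (0.0316), no call among the 4 changed and 49 miRNAs were called. DESeq2 called 57 and the fit without a filter 54. With 3 libraries a group and 16 to 317 counts of a member in a BMP4 library, depth limits the precision of all 4, and no permutation test could go below 0.1.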
